A study of Homo sapiens with 15 samples.

Results

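DDIT4, the sestrins SESN1, SESN2 and SESN3, and 6 further genes of amino acid sensing by mTORC1 (DEPTOR, RRAGC, RRAGD, FLCN, EIF4EBP1 and TSC1) were followed across THP-1 cells exposed to infliximab or CDP870. The members were these 10 of the 19775 genes named on the array, through all probe sets that the platform annotation gives to them alone, 24 of 54613 non-control probe sets. The genes were chosen from the log2 differences of infliximab against untreated and against CDP870-treated cells in these arrays, so for these 10 genes those differences are a description with no test. For them, p-values are given for CDP870 against untreated cells, the later against the earlier time, and the interaction of agent and time. These comparisons are built from the same group means as those used in the choice. Their p-values are therefore not independent of it and are read as a description.

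The cells were exposed to infliximab for 6 h or 24 h or to CDP870 for 6 h or 24 h, and untreated cells at 0 h were the control, with 3 arrays in each of the 5 groups. THP-1 is a human line from an acute monocytic leukaemia. Both agents bind tumour necrosis factor. Infliximab is a chimeric antibody of the IgG1 class. CDP870, or certolizumab pegol, lacks the Fc part and consists of a Fab′ fragment coupled to polyethylene glycol. All groups were the same cell line, so the arrays describe that line and not primary monocytes. Neither the labels nor the design text state a dose. No untreated culture was sampled at 6 h or 24 h, so agent and time in culture cannot be told apart in a comparison with 0 h. The design text speaks of biological replicates, but whether each array came from its own culture is not stated. The p-values therefore reflect only how far these samples spread, which may be technical.

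mTORC1 is a kinase complex on the lysosome surface that promotes protein synthesis and cell growth when amino acids and growth factors are plentiful. Amino acids reach it through the Rag GTPases, which recruit it to the lysosome, and growth factors through Rheb, which the TSC complex holds off. DDIT4 (also named REDD1) is a stress-induced protein that restrains mTORC1 through the TSC complex. Sestrins bind the GATOR2 complex when leucine is scarce, which leaves the Rag GTPases inactive. Several of these genes are known targets of the transcription factors of nutrient and oxygen stress, and in monocytes the pathway ties metabolism to activation.

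Values are log2 probe set levels as deposited. Their zero is unknown, so levels were compared between groups within a probe set and never between probe sets. The arrays' medians over non-control probe sets were 2.93 to 3.07. A probe set was tested when it lay above its array's own median on at least 3 of the 15 arrays, and a difference was called at an adjusted p under 0.05 in limma, with the Benjamini-Hochberg adjustment over all 28897 probe sets tested. Of the 24 member probe sets, 15 from 9 genes were tested. The 9 others comprised both DEPTOR probe sets, 5 of the 7 for SESN3, 1 of 4 for FLCN and 1 of 3 for RRAGC. Their values ran from 0.66 to 2.75, and none differed from control by more than 0.32 with infliximab. The sample is RNA of whole cultures, in which fewer cells of a type and less RNA per cell cannot be told apart.

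Some arrays stood apart from the rest. Infliximab 24 h replicates 5 and 6 and control replicate 3 had mean correlations with the other arrays of 0.973, 0.979 and 0.981, against 0.983 to 0.988 for the 12 others. Infliximab 24 h replicate 6 also had the largest 3′ over 5′ differences of GAPDH and ACTB, 0.24 and 0.27 on the log2 scale. The hybridisation spike-ins, RNAs added at fixed amounts, averaged 7.75 ± 0.04 in infliximab 6 h arrays, 7.51 ± 0.15 in infliximab 24 h arrays, 7.5 ± 0.12 in CDP870 6 h arrays, 7.6 ± 0.2 in CDP870 24 h arrays and 7.38 ± 0.13 in control arrays (log2, SD, n = 3 each). The part of these differences in the results was not tested, but each infliximab difference below was also computed with the spike-in level as a covariate. Not every such value is printed.

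DDIT4 showed the largest difference of the 10 genes. Its probe set, 202887_s_at, read 8.87, 9.08 and 9.11 after 6 h of infliximab and 9.06, 9.09 and 9.15 after 24 h. It read 6.18, 6.26 and 6.30 after 6 h of CDP870, 6.13, 6.16 and 6.38 after 24 h of CDP870, and 6.26, 6.45 and 6.46 in untreated cells. All 6 infliximab arrays lay above all 9 others, and the CDP870 arrays overlapped the control. Infliximab was 2.63 ± 0.1 (log2, SE of the model) above control at 6 h, or 6.19-fold, and 2.71 ± 0.1 above it at 24 h, or 6.54-fold. With the spike-in level as a covariate the differences were 2.55 and 2.68. Against CDP870 at the same time the infliximab level was 6.84-fold at 6 h and 7.34-fold at 24 h. The order of the group means was infliximab 24 h (9.1 ± 0.05, SD), infliximab 6 h (9.02 ± 0.13), control (6.39 ± 0.11), CDP870 6 h (6.25 ± 0.06) and CDP870 24 h (6.22 ± 0.14). In that order, only the step between infliximab 6 h and control separated neighbours whose arrays did not overlap.

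**Figure D1:**
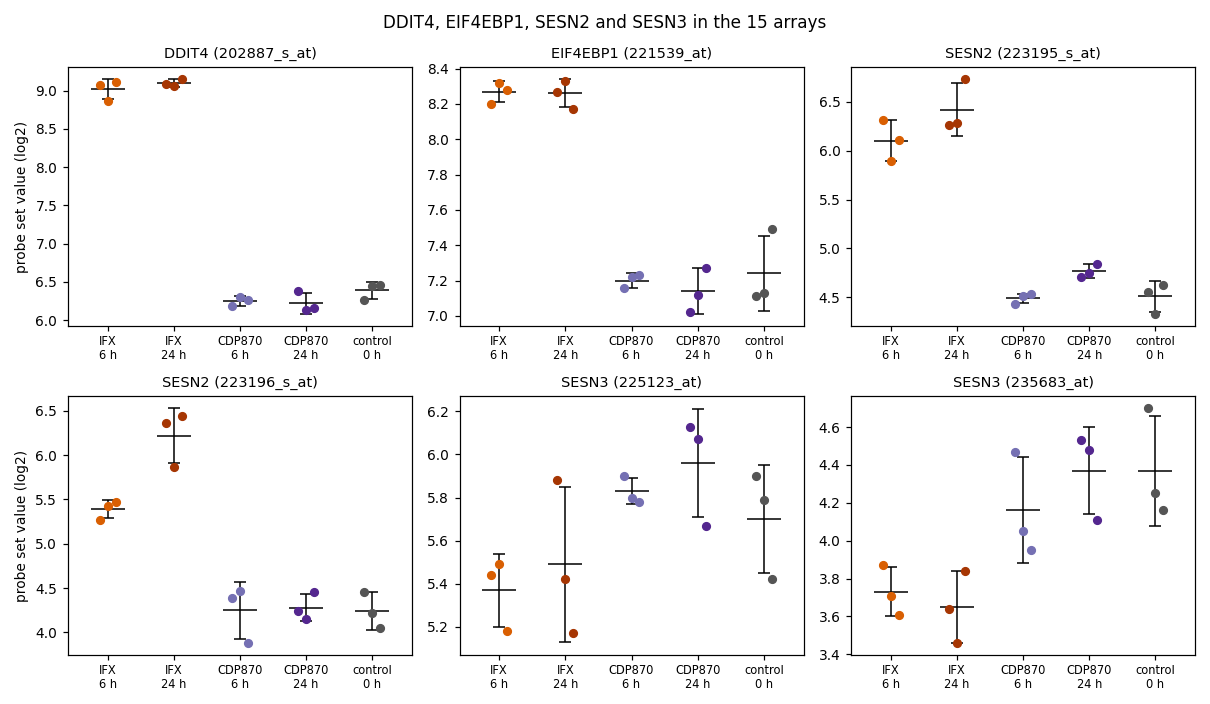
Log2 probe set value (vertical axis, each panel on its own scale that does not start at 0) of DDIT4, EIF4EBP1, SESN2 and SESN3 by group (horizontal axis; IFX is infliximab). Dots are the 3 arrays of a group and the bar is their mean ± SD. DDIT4, EIF4EBP1 and both SESN2 probe sets lay above all other groups on all 6 infliximab arrays, and SESN3 235683_at lay below them.

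Among the sestrins, SESN2 was higher with infliximab, SESN1 differed little between the groups, and SESN3 was lower without overlap with control on 1 of its 2 tested probe sets. SESN2, which encodes a cytosolic leucine sensor, has 2 probe sets. On 223195_s_at the values were 5.89, 6.11 and 6.31 after 6 h of infliximab and 6.26, 6.28 and 6.73 after 24 h. They were 4.43, 4.51 and 4.53 after 6 h of CDP870, 4.71, 4.75 and 4.84 after 24 h of CDP870, and 4.33, 4.56 and 4.63 in untreated cells. Every infliximab array lay above every other array. The differences from control were 1.6 ± 0.13 at 6 h (3.02-fold) and 1.92 ± 0.13 at 24 h (3.78-fold). The 3 CDP870 24 h arrays also lay above the 3 control arrays, by 0.26 (95% interval -0.03 to 0.55), which was not called (limma adjusted p = 0.974).

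The second SESN2 probe set, 223196_s_at, differed more between the times. It read 5.27, 5.42 and 5.47 after 6 h of infliximab and 5.87, 6.36 and 6.44 after 24 h. The values were 3.88, 4.39 and 4.47 after 6 h of CDP870, 4.15, 4.24 and 4.45 after 24 h of CDP870, and 4.05, 4.22 and 4.46 in untreated cells. Here the infliximab arrays of the 2 times did not overlap. The differences from control were 1.14 ± 0.17 at 6 h (2.21-fold) and 1.98 ± 0.17 at 24 h (3.94-fold). With the spike-in level as a covariate they were 1.66 and 2.16. CDP870 differed from control by 0 (95% interval -0.37 to 0.37) at 6 h and by 0.04 (-0.33 to 0.41) at 24 h, with limma adjusted p = 0.998 and 0.994.

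SESN3 belongs to the same family and is known as a target of the FOXO factors. Its brighter probe set, 225123_at, read 5.18, 5.44 and 5.49 after 6 h of infliximab and 5.17, 5.42 and 5.88 after 24 h. It read 5.78, 5.80 and 5.90 after 6 h of CDP870, 5.67, 6.07 and 6.13 after 24 h of CDP870, and 5.42, 5.79 and 5.90 in untreated cells. Infliximab and control overlapped at both times, with differences of -0.33 ± 0.18 and -0.21 ± 0.18. Against CDP870 all 3 infliximab arrays were lower at 6 h (-0.46 ± 0.18), and at 24 h the arrays overlapped (-0.47 ± 0.18). On the dimmer 235683_at the groups did separate. It read 3.61, 3.71 and 3.87 after 6 h of infliximab and 3.46, 3.64 and 3.84 after 24 h, against 4.16, 4.25 and 4.70 in untreated cells. The differences were -0.64 ± 0.17 (0.642-fold) and -0.72 ± 0.17 (0.606-fold).

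CDP870 left this probe set at 3.95, 4.05 and 4.47 after 6 h and at 4.11, 4.48 and 4.53 after 24 h, with limma adjusted p = 0.997 at each time against control. Infliximab minus CDP870 on it was -0.43 ± 0.17 at 6 h and -0.73 ± 0.17 at 24 h. Averaged over the 2 tested probe sets, SESN3 differed from control by -0.49 at 6 h and -0.47 at 24 h of infliximab, and from CDP870 by -0.44 and -0.6. Over the alternatives the difference of 235683_at from control ran from -0.76 to -0.47 at 6 h and from -1.01 to -0.56 at 24 h. That of 225123_at ran from -0.51 to -0.23 at 6 h and from -0.47 to -0.05 at 24 h.

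SESN1, the family member best known as a p53 target, read between 5.71 and 6.11 on all 15 arrays. Infliximab differed from control by 0.06 ± 0.11 at each time, with 95% intervals of -0.16 to 0.29 at 6 h and -0.17 to 0.28 at 24 h. CDP870 differed by 0.09 (-0.14 to 0.31) at 6 h and 0.02 (-0.2 to 0.25) at 24 h.

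The promoters of DDIT4 and SESN2, the 2 genes with the largest differences, and of SESN3, the sestrin whose means were lower, are set out as the 250 bases before the annotated start in RefSeq (GRCh38.p14). Capitals mark ACGTG, the core of the hypoxia response element. The DDIT4 window is chr10:72273674-72273923 on the plus strand, the SESN2 window chr1:28259268-28259517 on the plus strand, and the SESN3 window chr11:95232476-95232725 on the minus strand, each written 5′ to 3′ on the gene's strand.
DDIT4: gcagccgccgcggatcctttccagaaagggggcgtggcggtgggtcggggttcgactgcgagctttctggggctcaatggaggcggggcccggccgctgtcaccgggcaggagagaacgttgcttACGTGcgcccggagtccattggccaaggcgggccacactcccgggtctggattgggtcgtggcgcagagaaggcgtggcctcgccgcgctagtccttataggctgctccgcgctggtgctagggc
SESN2: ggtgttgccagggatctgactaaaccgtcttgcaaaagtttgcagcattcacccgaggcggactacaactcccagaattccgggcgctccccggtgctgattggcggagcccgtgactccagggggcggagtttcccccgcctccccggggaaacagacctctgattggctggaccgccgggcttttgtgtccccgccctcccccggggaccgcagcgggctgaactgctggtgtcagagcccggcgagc
SESN3: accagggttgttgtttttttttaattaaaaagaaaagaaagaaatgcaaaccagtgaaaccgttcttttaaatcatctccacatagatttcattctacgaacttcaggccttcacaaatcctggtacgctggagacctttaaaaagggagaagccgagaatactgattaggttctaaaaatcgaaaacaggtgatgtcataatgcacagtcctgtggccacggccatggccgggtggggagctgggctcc

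Promoter windows were used for 7 of the 10 genes, 9 windows in all, with none for RRAGD, EIF4EBP1 and DEPTOR. They were searched on both strands for 4 motifs. These were TGATGNAA, the core of the C/EBP-ATF response element; the hypoxia core ACGTG; the E-box core of the CLEAR element, spelled CACGTG; and the FOXO site GTAAACA. The E-box contains the hypoxia core, so those searches overlap. DDIT4 held ACGTG at bases 125 to 121 before its start, and RRAGC held the E-box at bases 112 to 107. None of the 9 windows held the C/EBP-ATF core or the FOXO site. Among the 35116 promoters of the same length, 3.14% held the C/EBP-ATF core, 18.5% the hypoxia core, 6.34% the E-box and 2.98% the FOXO site. The GC content was 68.8% for DDIT4, 65.6% for SESN2 and 42.8% for SESN3, which lay above 76.6%, 68.6% and 17.8% of all promoters. A match describes letters in the window and shows no binding.

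EIF4EBP1 was the third gene that was higher with infliximab. It encodes 4E-BP1, which binds the cap-binding protein eIF4E and blocks translation until mTORC1 phosphorylates it. Its probe set, 221539_at, read 8.20, 8.28 and 8.32 after 6 h of infliximab and 8.17, 8.27 and 8.33 after 24 h. It read 7.16, 7.22 and 7.23 after 6 h of CDP870, 7.02, 7.12 and 7.27 after 24 h of CDP870, and 7.11, 7.13 and 7.49 in untreated cells. The 6 infliximab arrays again lay above all 9 others. The difference from control was 1.02 ± 0.11 at 6 h (2.03-fold) and 1.01 ± 0.11 at 24 h (2.02-fold), and 1.01 at each time with the spike-in level as a covariate.

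The Rag GTPases and their regulator FLCN differed less, and the sizes varied between probe sets of a gene. RRAGC and RRAGD encode the Rag partners that must be loaded with GDP for mTORC1 to be recruited, and FLCN encodes folliculin, which promotes that state. On RRAGD 221523_s_at the values were 7.44, 7.66 and 7.66 after 6 h of infliximab and 7.62, 7.72 and 7.86 after 24 h. They were 7.30, 7.37 and 7.39 after 6 h of CDP870, 7.05, 7.39 and 7.5 after 24 h of CDP870, and 7, 7.3 and 7.43 in untreated cells. All 6 infliximab arrays lay above all 3 control arrays, the lowest of them by a narrow margin. The differences from control were 0.34 ± 0.13 at 6 h and 0.49 ± 0.13 at 24 h (1.4-fold). Over the alternatives they ran from 0.21 to 0.44 and from 0.35 to 0.58. On the brighter RRAGD 221524_s_at the infliximab arrays read 7.71 to 7.80 at 6 h and 7.75 to 7.82 at 24 h, the CDP870 arrays 7.54 to 7.62 and 7.57 to 7.67, and the control arrays 7.63 to 7.68. On this probe set all 6 infliximab arrays lay above all 9 others, with smaller differences from control of 0.1 ± 0.07 and 0.13 ± 0.07. On 221523_s_at the highest CDP870 24 h array, at 7.5, lay above the lowest infliximab array, at 7.44. Averaged over both probe sets, RRAGD differed from control by 0.22 at 6 h and 0.31 at 24 h of infliximab, and from CDP870 by 0.21 and 0.29.

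For RRAGC, 218088_s_at read 6.77, 6.88 and 6.88 after 6 h of infliximab, 6.84, 6.87 and 6.96 after 24 h, and 6.62, 6.66 and 6.71 in untreated cells. Infliximab lay above control without overlap, by 0.18 ± 0.08 and 0.23 ± 0.08. The CDP870 6 h arrays, at 6.81, 6.87 and 6.89, overlapped those of infliximab at 6 h, and their difference from control of 0.19 was not called (unadjusted p = 0.0234, limma adjusted p = 0.997). The CDP870 24 h arrays, at 6.68, 6.69 and 6.71, overlapped the control. RRAGC 222514_at differed from control by -0.01 ± 0.14 at 6 h and 0.32 ± 0.14 at 24 h of infliximab. Its highest array, infliximab 24 h replicate 5 at 6.92, was among the 3 that correlated least with the others.

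FLCN 1552664_at read 4.29, 4.41 and 4.55 after 6 h of infliximab and 4.20, 4.40 and 4.41 after 24 h, against 3.79, 3.88 and 4.20 in untreated cells. It read 3.91, 3.98 and 4.24 after 6 h of CDP870 and 3.66, 3.80 and 4.15 after 24 h of CDP870. Infliximab differed from control by 0.46 ± 0.14 at 6 h and 0.38 ± 0.14 at 24 h. The other tested FLCN probe sets moved by 0 and -0.08 (215645_at) and by -0.28 and -0.31 (235250_at) at 6 h and 24 h. Averaged over its 3 tested probe sets, FLCN differed from control by 0.06 at 6 h and -0.01 at 24 h of infliximab. A further probe set, annotated to both PLD6 and FLCN and not counted among the members, read 6.11 to 6.34 after 6 h of infliximab, 6.25 to 6.38 after 24 h, 6.06 to 6.25 after 6 h of CDP870, 6.15 to 6.25 after 24 h of CDP870, and 6.36 to 6.43 in untreated cells. On it both agents had arrays below all control arrays.

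TSC1, a subunit of the complex through which DDIT4 acts, read between 5.61 and 6.04 on all arrays. Infliximab differed from control by -0.11 ± 0.11 at 6 h and -0.03 ± 0.11 at 24 h, and CDP870 by 0.04 (95% interval -0.2 to 0.27) and -0.14 (-0.37 to 0.1). DEPTOR, an inhibitory subunit bound to mTOR, lay between 1.68 and 2.4 on 218858_at and between 0.75 and 1.59 on 234071_at. Both ranges are below the arrays' medians, so DEPTOR was not tested.

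**Figure D2:**
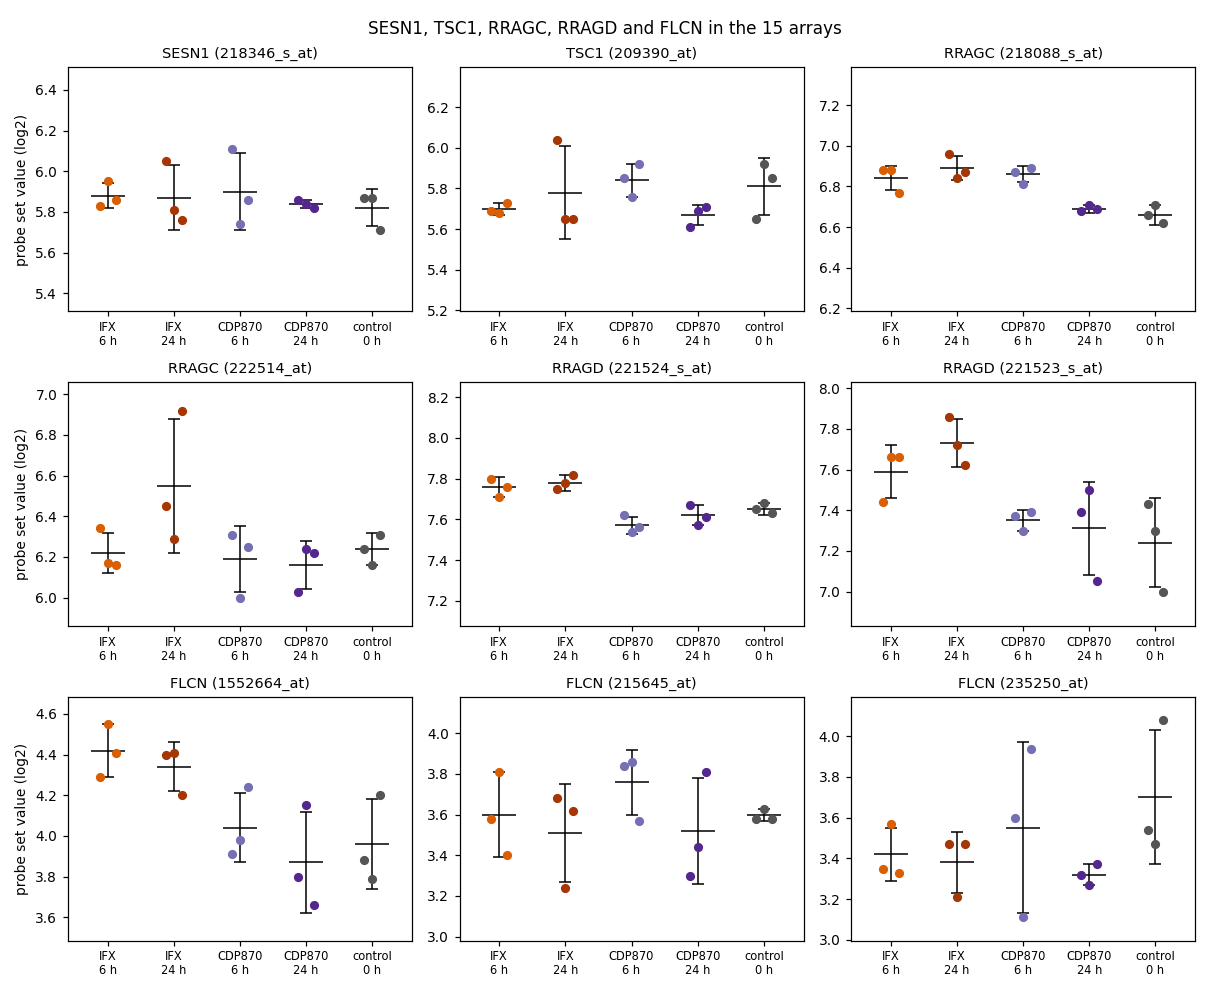
Log2 probe set value (vertical axis, each panel on its own scale that does not start at 0) of SESN1, TSC1, RRAGC, RRAGD and FLCN by group (horizontal axis; IFX is infliximab). Dots are the 3 arrays of a group and the bar is their mean ± SD. RRAGD 221523_s_at and FLCN 1552664_at were highest on average with infliximab. FLCN 235250_at was highest in the control and FLCN 215645_at after 6 h of CDP870. SESN1 stayed between 5.71 and 6.11 in every group.

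Counted over the 15 tested member probe sets, infliximab at 6 h had 4 called higher and 1 lower than control, beside 8.42% of all probe sets called in either direction (4.02% higher and 4.4% lower). At 24 h 5 were called higher and 1 lower, beside 6.57% of all probe sets (3.78% higher and 2.79% lower). Against CDP870, 4 were called higher and 0 lower at 6 h, beside 9.07% of all (5.1% higher and 3.98% lower). At 24 h 4 were called higher than with CDP870 and 1 lower, beside 6.51% (4.73% higher and 1.79% lower). The higher ones were DDIT4, EIF4EBP1 and both SESN2 probe sets in all 4 comparisons, and RRAGD 221523_s_at at 24 h against control. The lower one was SESN3 235683_at, at both times against control and at 24 h against CDP870. The genes were chosen with these comparisons known, so nothing is read from these shares, and the calls are no test of the members. The SESN3 call against control was absent in 7 of 22 alternatives at 6 h. It was lost with the spike-in covariate (-0.54) and with median centring (-0.62). It was also lost without control replicate 2 (-0.47) or 4 (-0.7) or infliximab 6 h replicate 8, 9 or 10 (-0.63, -0.58 and -0.71). At 24 h it was absent in 4 of 22, namely with only the compared groups (-0.72) and without control replicate 2 (-0.56) or infliximab 24 h replicate 6 (-0.72) or 7 (-0.63). Against CDP870 at 24 h it was absent in 4 of 22, namely with only the compared groups (-0.73) and without CDP870 24 h replicate 11 (-0.65) or 12 (-0.67) or infliximab 24 h replicate 6 (-0.72). The RRAGD call was absent in 15 of 22, and 10 of these left out a single array, namely control replicate 3 or 4, infliximab 6 h replicate 8 or 9, infliximab 24 h replicate 6 or 7, CDP870 6 h replicate 14, 15 or 16, or CDP870 24 h replicate 11 (0.37 to 0.52). With a gene's probe sets averaged, SESN3 was called at 6 h against control and at 24 h against CDP870, and RRAGD at 24 h against both. The averaged SESN3 was not called at 24 h against control (-0.47) or at 6 h against CDP870 (-0.44). The median difference of the 15 from control was 0.1 at 6 h and 0.23 at 24 h, beside -0.04 and -0.02 over all probe sets tested. The comparisons of infliximab with control and with CDP870 share the infliximab arrays, and those of both agents with control share the control arrays.

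CDP870 changed none of the 15 probe sets beyond the threshold. In limma 0 members were called against control at 6 h and 0 at 24 h, as were 0 of all 28897 probe sets (0% each). At an unadjusted p under 0.05, 1 member (RRAGC 218088_s_at, at 6 h) and 0 members (at 24 h) passed, and 1352 and 1359 of all probe sets. No member was called against control under any alternative run. For DDIT4 the difference from control was -0.14 at 6 h (95% interval -0.35 to 0.07, limma adjusted p = 0.997) and -0.17 at 24 h (-0.38 to 0.04, adjusted p = 0.974). EIF4EBP1 differed from control by -0.04 (-0.27 to 0.19, limma adjusted p = 0.997) at 6 h and -0.11 (-0.34 to 0.12, adjusted p = 0.977) at 24 h. These intervals do not reach the sizes measured with infliximab, by which the genes were chosen. The choice used the same control and CDP870 arrays, so the intervals are not independent of it. The agents were also compared directly. Infliximab minus CDP870 was 2.77 at 6 h and 2.88 at 24 h for DDIT4, 1.61 and 1.66 for SESN2 223195_s_at, 1.14 and 1.94 for SESN2 223196_s_at, and 1.06 and 1.12 for EIF4EBP1 (log2).

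**Figure D3:**
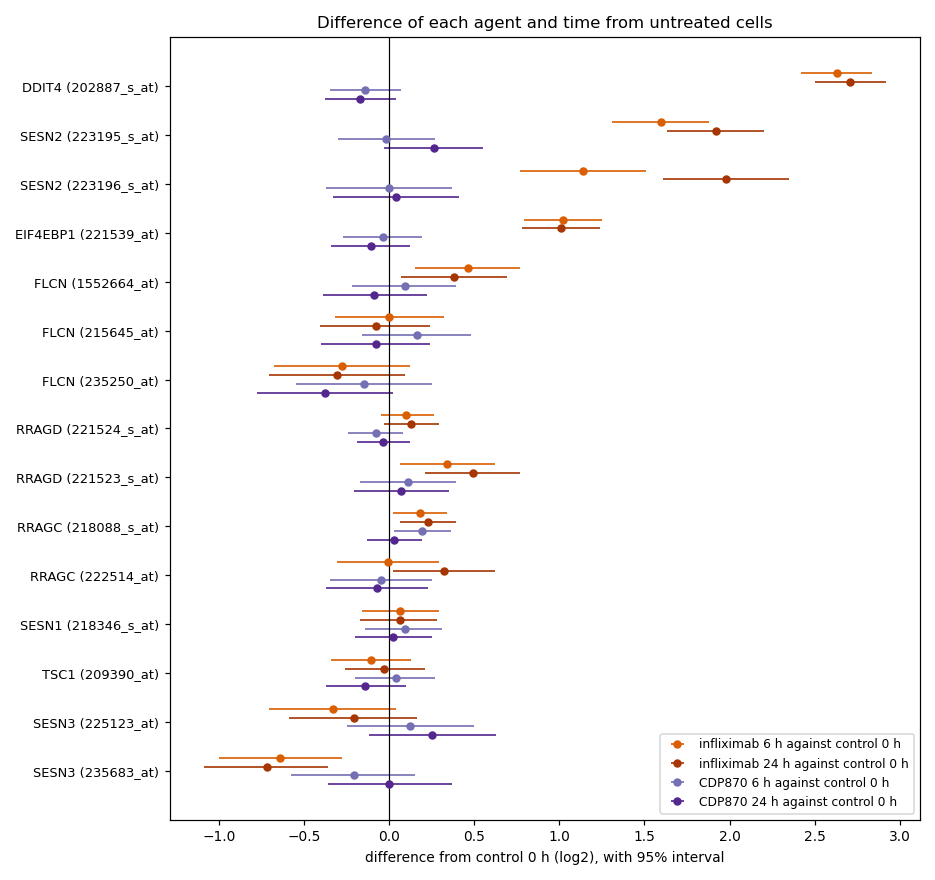
Log2 difference from control 0 h (horizontal axis) of the 15 tested member probe sets (rows), with the 95% interval of the model. Colours give infliximab at 6 h and 24 h and CDP870 at 6 h and 24 h. The infliximab differences of DDIT4, SESN2 and EIF4EBP1 lie between 1.01 and 2.71, while every CDP870 interval but that of RRAGC 218088_s_at at 6 h includes 0.

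Between the times of infliximab, the differences of DDIT4 and EIF4EBP1 were small beside those from control. DDIT4 at 24 h minus 6 h was 0.08 (95% interval -0.13 to 0.29, limma adjusted p = 0.795), and EIF4EBP1 was -0.01 (-0.24 to 0.22, adjusted p = 0.985). SESN2 read higher at 24 h on both probe sets, by 0.32 (0.03 to 0.61, limma adjusted p = 0.377) on 223195_s_at and by 0.84 ± 0.17 (0.47 to 1.21, unadjusted p = 0.000236, adjusted p = 0.3) on 223196_s_at, and neither was called. No probe set of the array was called between the times of infliximab in limma (0%), and 3437 had an unadjusted p under 0.05. The interaction of agent and time was 0.04 for SESN2 223195_s_at (limma adjusted p = 0.957) and 0.8 for 223196_s_at (95% interval 0.28 to 1.33, adjusted p = 0.502), beside 0 probe sets called in all (0%) and 2642 with an unadjusted p under 0.05. Without infliximab 24 h replicate 7, the lowest of its group on 223196_s_at, the time difference was 1.01 (limma adjusted p = 0.00282) and the interaction 0.98 (adjusted p = 0.0327), but then 2462 and 920 probe sets were called overall. Over all alternatives the time difference of this probe set ran from 0.48 to 1.01, with limma adjusted p = 0.00282 to 0.999.

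Between the times of CDP870, 0 members and 0 of all probe sets (0%) were called in limma, and 1437 of all had an unadjusted p under 0.05. SESN2 223195_s_at was 0.28 higher at 24 h without overlap of the arrays (95% interval -0.01 to 0.56, limma adjusted p = 0.996). RRAGC 218088_s_at differed by -0.16 between the same times (-0.33 to 0, unadjusted p = 0.0499), also without overlap and not called.

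The other genes of the pathway were taken as 12 lists of 110 genes, none of them a member, of which 94 had a tested probe set. Like the members, the lists were chosen with these results known. The shares below are therefore a description, and nothing is read from their distance to the background. The adjusted p-values of list genes with infliximab likewise only show which were called and are no test of these genes. With infliximab 17 rose and 3 fell at 6 h (21.3% called, beside 8.42% of all probe sets) and 17 rose and 1 fell at 24 h (19.1%, beside 6.57%). The median difference from control was 0.01 at 6 h and 0.16 at 24 h, beside -0.04 and -0.02 over all probe sets. With CDP870 0 of the 94 were called at either time in limma, and 2 at 6 h and 1 at 24 h had an unadjusted p under 0.05. Against CDP870, infliximab had 16 higher and 3 lower at 6 h (20.2%, beside 9.07% of all probe sets). At 24 h it had 21 higher and 1 lower (23.4%, beside 6.51%). With the spike-in level as a covariate 5 of the 20 calls against control at 6 h were left, for SLC3A2, SLC7A11, SLC1A4, SLC38A1 and MLST8. The spike-ins read 7.71 to 7.78 in infliximab 6 h arrays and 7.23 to 7.46 in control arrays, without overlap. Covariate and comparison are therefore partly confounded, and the part of each in a lost call was not tested. The differences of several genes whose call was lost stayed close to their size, with SLC7A5 at 0.94 with the covariate and 0.93 without it, SLC1A5 at 0.77 and 0.67, and KLF2 at 0.86 in both. Others were smaller with it, among them CCNG2 (1.07, against 1.34 without it) and TNFRSF10B (0.31, against 0.46). With only the compared groups in the fit 9 of the 18 calls at 24 h were left, for those 5 genes and SLC7A5, GRB10, TXNIP and KLF2.

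Amino acid transporters held the most of these calls, in lists chosen with these results known. Of 11 tested, 7 rose and 1 fell at 6 h (median difference 0.69), beside 8.42% of all probe sets called in either direction. At 24 h 8 rose and 0 fell (median 0.94), beside 6.57%. SLC3A2, the heavy chain shared by several exchangers, was 1.02 ± 0.09 above control at 6 h and 1.08 ± 0.09 at 24 h (limma adjusted p = 9.18e-06 and 3.97e-06). Its light chain partners include SLC7A11, the cystine importer, which rose by 1.58 and 1.56 (limma adjusted p = 6e-05 and 5.54e-05), and SLC7A5, the leucine transporter, which rose by 0.93 and 1.35 (adjusted p = 0.00145 and 5.06e-05). The neutral amino acid carriers SLC1A4 (1.03 and 1.39, limma adjusted p = 7.85e-05 and 3.56e-06) and SLC38A1 (1.2 and 1.1, adjusted p = 4.9e-05 and 9.81e-05) also rose. SLC7A6, another light chain, fell by 0.41 at 6 h (limma adjusted p = 0.0298) and was not called at 24 h. That call was lost in 9 of 22 alternatives, including the spike-in covariate and the removal of any of the 3 infliximab 6 h or 3 control arrays.

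Of the 22 tested genes in the 4 lists of the sensing machinery, 2 were called at 6 h (9.09%, beside 8.42% of all probe sets) and 1 at 24 h (4.55%, beside 6.57%). Of 6 tested GATOR1 and KICSTOR genes, the inhibitors of the Rag GTPases and their anchor, 0 were called at either time, with DEPDC5 at -0.18 and KPTN at -0.2 at 6 h and 0.3 and -0.1 at 24 h. Of 5 GATOR2 genes, the complex that sestrins bind, SEC13 fell by 0.46 at 6 h and by 0.45 at 24 h (limma adjusted p = 0.00424 and 0.00526). SEC13 also serves in COPII vesicle coats and nuclear pores. Of 8 genes for Rag GTPases, Ragulator and partners 0 were called. The lysosomal arginine sensor SLC38A9 came nearest, at 0.46 and 0.41 (limma adjusted p = 0.0553 and 0.105). Among 3 cytosolic sensors LARS1, the leucyl-tRNA synthetase, rose by 0.38 at 6 h (limma adjusted p = 0.0473), a call lost in 15 of 22 alternatives, and 0 were called at 24 h.

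Among 7 tested subunits of the mTOR complexes 1 rose, MLST8, the subunit common to both complexes, at 0.92 ± 0.12 and 1.12 ± 0.12 (limma adjusted p = 0.000305 and 4.5e-05). MTOR itself was at -0.49 and -0.06 (limma adjusted p = 0.0703 and 0.879). Of 4 genes of the TSC complex and Rheb 0 were called at 6 h, and RHEBL1, a Rheb relative, rose by 0.45 at 24 h (limma adjusted p = 0.043, lost in 17 of 22 alternatives). Of 7 upstream kinases and phosphatases PRKAG1, an AMPK subunit, rose by 0.38 at 6 h (limma adjusted p = 0.0271, lost in 8 of 22), and 0 were called at 24 h.

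Of 13 mTORC1 effectors, 1 rose and 1 fell at 6 h and 1 rose and 0 fell at 24 h. GRB10, an adaptor that mTORC1 phosphorylates and that dampens insulin receptor signalling, was 0.97 ± 0.15 and 1.4 ± 0.15 above control (limma adjusted p = 0.00138 and 5.01e-05). EIF4G1, the scaffold that 4E-BP1 competes with for eIF4E, fell by 0.76 at 6 h (limma adjusted p = 0.0217, lost without control replicate 3 or infliximab 6 h replicate 9 or 10, and with the spike-in covariate). Of 11 lysosomal targets of TFEB and TFE3, the factors that FLCN and the Rag GTPases hold in the cytosol, SQSTM1 alone was called, at 0.36 and 0.4 (limma adjusted p = 0.0232 and 0.0164, lost in 6 and 5 of 22 alternatives).

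The lists for factors known to drive sestrin genes held the calls below. Of all probe sets 8.42% were called at 6 h and 6.57% at 24 h, and nothing is read from the distance to these shares. Of 9 p53 targets, TNFRSF10B (0.46 and 0.52, limma adjusted p = 0.039 and 0.0257) and GADD45A (0.35 and 0.41, adjusted p = 0.0399 and 0.0221) rose at both times, calls lost in 6 to 13 of 22 alternatives. Both are known targets of other stress factors too. Of 10 FOXO targets 3 rose at each time. TXNIP rose by 0.7 and 0.72 (limma adjusted p = 0.000309 and 0.00025), KLF2 by 0.86 and 0.97 (adjusted p = 0.00106 and 0.000402), CCNG2 by 1.34 at 6 h (adjusted p = 0.00773) and KLF6 by 0.41 at 24 h (adjusted p = 0.0475, lost in 19 of 22). For SESN3, the FOXO target among the members, the differences were -0.64 and -0.72 on 235683_at and -0.33 and -0.21 on 225123_at, whose arrays overlapped those of the control. The part of FOXO factors or p53 in any of these differences was not tested.

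**Figure D4:**
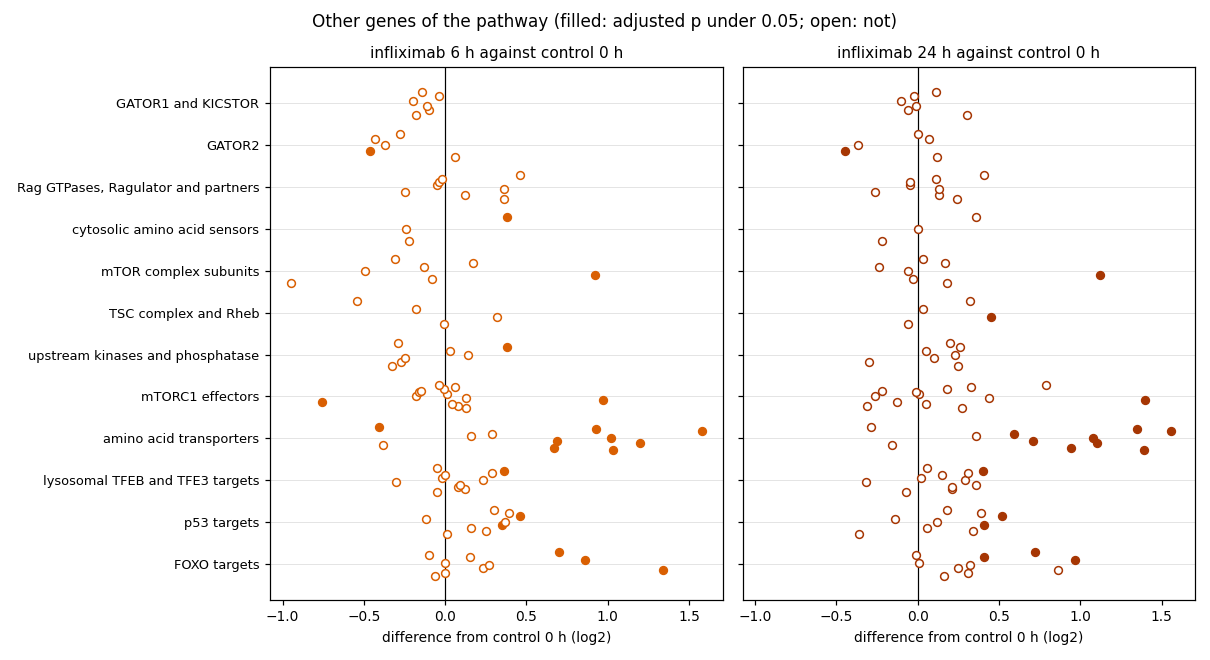
Log2 difference from control 0 h (horizontal axis) for infliximab at 6 h (left panel) and 24 h (right panel) of the 94 tested genes in 12 lists (rows), 1 circle per gene. Filled circles have an adjusted p under 0.05 and open circles do not. Of the filled circles to the right, 7 at 6 h and 8 at 24 h are amino acid transporters. The lists were chosen with these results known, so nothing is read from where the filled circles lie.

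The genes whose values ran most like those of DDIT4 were found by the root mean square difference over the 15 arrays, after each probe set's own mean was subtracted, among 13607 genes. This uses the same values by which DDIT4 and SESN2 were chosen, so the order is a description. Shared regulation was not tested. They were VEGFA (0.2), the vascular growth factor, INHBE (0.25), an activin subunit, ALDH1L2 (0.28), a mitochondrial folate enzyme, ASNS (0.31), asparagine synthetase, and CTH (0.31), cystathionine gamma-lyase. The median over all genes was 1.38. For SESN2 the nearest were CBS (0.19), cystathionine beta-synthase, TSC22D3 (0.21), a glucocorticoid-induced leucine zipper protein, APOL6 (0.23), an apolipoprotein L, PHGDH (0.23), the first enzyme of serine synthesis, and WARS1 (0.24), tryptophanyl-tRNA synthetase, with a median of 0.87. DDIT4 and SESN2 differed from each other by 0.58 on this measure. Values were not scaled, so these distances and medians also depend on how far each gene moved, and not on its course alone.

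Markers of other cell types were set beside these results. Of the monocyte markers, 8 of 10 had a probe set and 7 passed the filter, of which 2 rose with infliximab at 6 h and 3 at 24 h. LYZ read 9.26 to 9.97 on all arrays, while CD14, a defining marker, was at 2.14 to 3.16 and above the array median on 2 of 15 arrays. Of 8 epithelial markers tested, 4 rose with infliximab at 6 h and 5 at 24 h, among them EPCAM, KRT18, KRT5 and KRT19. KRT7 and CLDN4 differed by -0.01 and 0.16 from CDP870 at 6 h, and neither was called there. Of all probe sets 8.42% were called against control at 6 h and 6.57% at 24 h, and nothing is read from the distance to these shares. KRT18 had the highest mean of the epithelial list (8.3) and weighs most in its linear sum. The summed linear level of the epithelial list was 949 to 1160 after 6 h of infliximab, 1030 to 1140 after 24 h, 507 to 596 after 6 h of CDP870, 542 to 606 after 24 h of CDP870 and 685 to 811 in untreated cells. CDH1, the defining epithelial cadherin, stayed below the array median on all 15 arrays (1.79 to 2.28). The part of these markers in the differences of DDIT4, SESN2 and EIF4EBP1 was not tested. None of the tested T cell, B cell, erythroid or fibroblast markers was called with infliximab.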

How the data were processed

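RNA of 15 THP-1 samples, 3 in each of 5 groups taken from the sample labels, was measured on Affymetrix arrays with 54675 probe sets, of which 62 were controls. The deposited values are summaries per probe set on a log2 scale. GCRMA and GCOS 1.3.0 stand in the submitters' processing notes without a role, and the labels' protocols describe biotinylated cRNA by the standard Affymetrix procedure. No source used here gives the background and normalization settings, and folds at low values are therefore the most uncertain. The number of arrays limits the precision.

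Probe sets above their array's own median (50th percentile) of non-control probe sets on at least 3 arrays were fitted in R 4.3.3 by limma 3.58.1 (lmFit, contrasts.fit and then eBayes), with 1 mean per group over all 15 arrays. Tests were two-sided, adjusted by Benjamini-Hochberg within each of 9 comparisons and called at 0.05. Errors beside log2 differences are standard errors of the model. The fit was tested on simulated data. The members and the lists were chosen with earlier results of these data known. All member probe sets are accounted for. For a list gene the brightest of its tested probe sets stands, and up to 4 called genes per direction with the smallest p are named (2 as values where none passed), though not all are printed. MTOR was named after its values were seen. Probe set genes come from the platform annotation, in which 41091 non-control probe sets had 1 symbol, 1801 several and 11721 none. Promoters were cut from RefSeq tables. Alternatives were other scalings, no filter, the mean of a gene's tested probe sets, only the compared groups, array weights, the spike-in level as a covariate, and each array left out. Python 3.11.15 and matplotlib 3.10.9 drew the figures.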

Additional observations from a re-analysis of the deposited data

How the results depend on the processing

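Each result was recomputed under 23 alternative settings, 15 of which left out 1 array each. Of 135 values of member probe sets in 9 comparisons, 0 changed sign after being called, 4 lost their call in at least 1 alternative and 13 gained 1. The members were chosen for their infliximab differences, so this says nothing of how firm those differences are. The counts over all probe sets also moved with the setting. For infliximab at 6 h against control (2432 called), array weights gave 4588, gene means 1614, the spike-in covariate 181 and leaving out 1 array 1156 to 3187. Counts moved by over 1.5 times without control replicate 3 (1487) or infliximab 6 h replicate 8, 9 or 10 (1259, 1156 and 1326). For infliximab at 24 h against control (1899) the fit of only the compared groups gave 200, removal of the 3 arrays that correlate least with the others 984, and leaving out 1 array 1120 (control replicate 2) to 2620. Its calls were 57.5% higher in the deposited scaling and 71.9% after centring on the median. For infliximab against CDP870 at 6 h (2622) array weights gave 6326, gene means 1640, only the compared groups 5117, the spike-in covariate 751, removal of those 3 arrays 5625 and leaving out 1 array 1181 to 3326, with every one of the 6 compared arrays lowering it to between 1181 and 1688. At 24 h (1882) only the compared groups gave 331 and leaving out 1 array 1074 to 2891, with moves over 1.5 times without CDP870 24 h replicate 11, 12 or 13 (1105, 1074 and 1230) or infliximab 24 h replicate 7 (2891). Between the times of infliximab (0) leaving out 1 array gave 0 to 2462, and for the interaction (0) 0 to 920, the high counts without infliximab 24 h replicate 7. CDP870 against control (0 at each time) gave 11 at 6 h and 2 at 24 h with array weights and 1 at 24 h with the spike-in covariate. Between the times of CDP870 (0) array weights gave 280, no filter 1, removal of the 3 arrays 1 and leaving out 1 array 0 to 1 (1 without infliximab 24 h replicate 6). The spike-in level of the infliximab 6 h arrays lay above that of all control and CDP870 6 h arrays, so at 6 h this covariate is partly confounded with the comparison. The cause of these moves was not tested.

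Of the 15 tested member probe sets, 5 were called for infliximab against control at 6 h (4 to 6 with 1 array left out) and 6 at 24 h (4 to 6). Of all probe sets 8.42% and 6.57% were called. Against CDP870 4 were called at 6 h (4 to 4, and 7 with array weights) and 5 at 24 h (4 to 7), beside 9.07% and 6.51% of all. SESN2 counts with both of its probe sets. Between the times of infliximab and for the interaction 0 were called (0 to 1, the 1 being SESN2 223196_s_at without infliximab 24 h replicate 7). Pathway genes called with infliximab against control numbered 14 to 25 at 6 h and 14 to 27 at 24 h with 1 array left out, and 34 at 6 h with array weights. Between the times 17 were called without infliximab 24 h replicate 7, against 0 with all arrays. Removal of the 3 least correlated arrays was chosen after seeing the data. It leaves 1 infliximab 24 h array, which is then assumed to vary like the other groups. No paired analysis was possible because the labels give no pairing. The replicate numbers used here are the serial numbers in the sample titles, which run in blocks by group. An effect of that order could not be told apart from group.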
